A study of Mus musculus with 25 samples.

Results

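The urea cycle is the liver's route for turning ammonia into urea, and the genes described here encode enzymes of it, the cofactor supply and carriers that feed it, a liver glutaminase, and a lipid droplet enzyme listed with them. There are 9 of them, chosen by symbol: Nags, Cps1, Otc, Ass1, Asl, Slc25a15, Slc25a13, Gls2 and Hsd17b13. Each symbol mapped to 1 Ensembl identifier among the 48795 listed for every sample, and all 9 were among the 15625 genes that passed the filter on low counts. In DEN-induced tumors of Western diet-fed mice, 7 of these genes were lower than in the peritumoral liver, Hsd17b13 was higher, and Gls2 was not separated, where 18.1% of all tested genes were lower and 19.5% higher. Among the non-tumor livers at most 4 of the 9 changed in one comparison, where 45.3% of all genes did, and a count of that size is near the share over all genes. All 4 were lower, where 21.9% of all genes were, and leaving out single libraries gave 3 to 7 changed. Slc25a15 and Cps1 were the furthest below nonDEN-L-CD livers in that comparison, of peritumoral livers.

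In the mitochondria of hepatocytes, Nags makes N-acetylglutamate, the cofactor without which Cps1 does not bind ammonia into carbamoyl phosphate. Otc joins carbamoyl phosphate to ornithine, and Slc25a15 exchanges the citrulline that leaves for the ornithine that enters. In the cytosol, Ass1 joins citrulline to the aspartate exported by Slc25a13, and Asl splits the product into fumarate and arginine. Gls2 frees ammonia from glutamine beside this pathway. These steps are richest in hepatocytes around the portal vein, whereas Glul, which traps the remaining ammonia as glutamine, sits in the last cells around the central vein. Hsd17b13 is not an enzyme of nitrogen metabolism: it is a liver dehydrogenase of the lipid droplet surface.

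The animals were male C57BL/6J mice in 5 groups. Mice of the nonDEN-L-CD group (n = 3) had no carcinogen and ate control diet, and those of the nonDEN-L-WD group (n = 4) had no carcinogen and ate Western diet. The DEN groups were given 25 mg/kg of the liver carcinogen diethylnitrosamine at 2 weeks of age. Whole liver was taken from DEN-treated mice on control diet (DEN-L-CD, n = 4), in which tumors were too small to be separated from the liver, so these libraries may hold both. From DEN-treated mice on Western diet, peritumoral liver (DEN-PT-WD, n = 8) and tumors (DEN-T-WD, n = 6) were taken separately. Age at harvest is given as 36 weeks in one place of the study's account and as 36 to 39 weeks in another. Diets ran from weaning. There was no tumor group on control diet, so diet cannot be told apart from tumor status when tumors are set beside livers on control diet. The labels do not say which tumor and which peritumoral sample share a mouse, nor that the samples of a group came from separate mice, so p-values measure the spread between these samples.

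The deposited values are RNA-seq estimates per gene, given in expected counts and in TPM (abundance per transcript length, scaled to the same total in every library). Totals per library ran from 21530083 to 38074411 expected counts, and the lowest expected count of any of the 9 genes in any library was 513, for Nags in a tumor. Tests used the counts, and "changed", "higher" and "lower" below mean an adjusted p of at most 0.05 in edgeR's quasi-likelihood test over all 15625 genes, with log2 fold changes ± SE. Levels and ranges are TPM ± SD. Alb, Apoa1 and the other hepatocyte markers had summed levels between 43892 and 166189 TPM in every library. Tumor replicate 5 stood apart, at 43892 TPM for the 8 hepatocyte markers against 143381 or more in the other 5 tumors, and at 954 TPM for the 8 leukocyte markers against 328 to 596. Peritumoral replicate 7 was lowest of its group for the hepatocyte markers (53578 TPM). It was highest for the leukocyte markers (510 TPM), but close to replicate 8 (505 TPM). In 7 libraries the 9 pancreas genes summed to over 1000 TPM. The share of these sources in the results was not tested. In bulk tissue, fewer cells of a type and less RNA per cell cannot be told apart.

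The genes lie on 8 chromosomes of the GRCm38 build. On the forward strand are Cps1 (ENSMUSG00000025991) at chr1:67123026-67231259, Ass1 (ENSMUSG00000076441) at chr2:31470207-31520672, Gls2 (ENSMUSG00000044005) at chr10:128194457-128210004, Nags (ENSMUSG00000048217) at chr11:102145513-102149477 and Otc (ENSMUSG00000031173) at chrX:10252305-10321024. On the reverse strand are Asl (ENSMUSG00000025533) at chr5:130011258-130029247, Hsd17b13 (ENSMUSG00000034528) at chr5:103955440-103977410, Slc25a13 (ENSMUSG00000015112) at chr6:6041218-6217173 and Slc25a15 (ENSMUSG00000031482) at chr8:22375551-22398597. The pseudogene Gm5424 shares 38.6% of the 50-base words of Ass1, so reads could be split between both, although its group means were 25.3 TPM or less. The antisense gene Gm11586 shares 13.5% of the words of Nags and never exceeded 21 counts, and Spryd4 overlaps Gls2 on the opposite strand with 1.28%. How strand was handled in counting is not given in the sources used here.

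The bases just before the start site are shown for the 4 genes that mark the different patterns described below: Otc, which was tight in liver and low in tumors, Nags, which was lower in every other group than in the untreated control diet livers, Slc25a13, the aspartate carrier, and Hsd17b13, the gene that was higher in tumors. They come from RefSeq promoters on GRCm38.p6, which held 6 of the 9 genes, and end 1 base before the first annotated base. Capitals mark matches to 7 motifs searched on both strands: CCAAT (the CCAAT box), TTGCGCAA (a C/EBP palindrome), TGACGTCA (the cAMP response element), TGACG (its first part, which lies within it), CAAAGTCCA (an HNF4 element), TATAAA (the TATA box) and GGGCGG (the GC box).
Otc: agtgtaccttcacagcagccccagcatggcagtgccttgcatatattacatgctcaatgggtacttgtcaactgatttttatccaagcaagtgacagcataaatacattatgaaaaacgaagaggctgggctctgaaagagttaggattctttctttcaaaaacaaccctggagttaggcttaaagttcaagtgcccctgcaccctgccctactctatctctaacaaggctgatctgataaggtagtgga
Nags: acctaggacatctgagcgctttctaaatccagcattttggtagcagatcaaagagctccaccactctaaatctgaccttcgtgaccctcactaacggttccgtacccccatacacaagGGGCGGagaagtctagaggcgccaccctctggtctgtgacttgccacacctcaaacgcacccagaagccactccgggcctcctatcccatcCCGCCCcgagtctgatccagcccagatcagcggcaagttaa
Slc25a13: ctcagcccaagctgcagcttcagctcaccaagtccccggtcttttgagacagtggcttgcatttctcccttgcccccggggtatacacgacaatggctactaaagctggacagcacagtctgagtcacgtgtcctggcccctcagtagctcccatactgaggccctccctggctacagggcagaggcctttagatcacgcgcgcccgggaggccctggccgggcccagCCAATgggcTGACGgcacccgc
Hsd17b13: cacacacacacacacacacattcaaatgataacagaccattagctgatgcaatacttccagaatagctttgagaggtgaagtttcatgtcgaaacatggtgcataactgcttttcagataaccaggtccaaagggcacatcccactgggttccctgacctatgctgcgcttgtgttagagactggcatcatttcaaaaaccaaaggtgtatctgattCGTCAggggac
The Otc stretch is chrX:10252055-10252304 on the forward strand and holds none of the 7 motifs. The Nags stretch is chr11:102145263-102145512 on the forward strand and holds the GC box once on each strand. The Slc25a13 stretch is chr6:6217174-6217423 on the reverse strand and holds a CCAAT box followed by TGACG. The Hsd17b13 stretch is chr5:103977411-103977638 on the reverse strand and holds TGACG on the opposite strand. Of the 32851 promoters in the table, taken over 250 bases before the start, 33.9% hold CCAAT, 32.7% GGGCGG, 17.8% TGACG, 12.4% TATAAA, 1.55% TGACGTCA, 0.38% CAAAGTCCA and 0.16% TTGCGCAA. These matches are common or absent, and describe letters only.

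The cycle enzymes were among the most abundant transcripts of these livers. Ordered by mean TPM over the 25 libraries, Ass1 was 95th of the 48795 listed genes (1157 TPM) and Cps1 130th (777 TPM). Hsd17b13 followed at 452 TPM, Asl at 285, Otc at 249, Gls2 at 124, Slc25a13 at 105 and Slc25a15 at 93.4. Nags, which makes only a cofactor, was the lowest at 21.4 TPM. Cps1, Otc, Ass1 and Asl summed to 3181 ± 638 TPM in nonDEN-L-CD livers (n = 3) and to 1548 ± 515 TPM in tumors (n = 6).

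**Figure D1:**
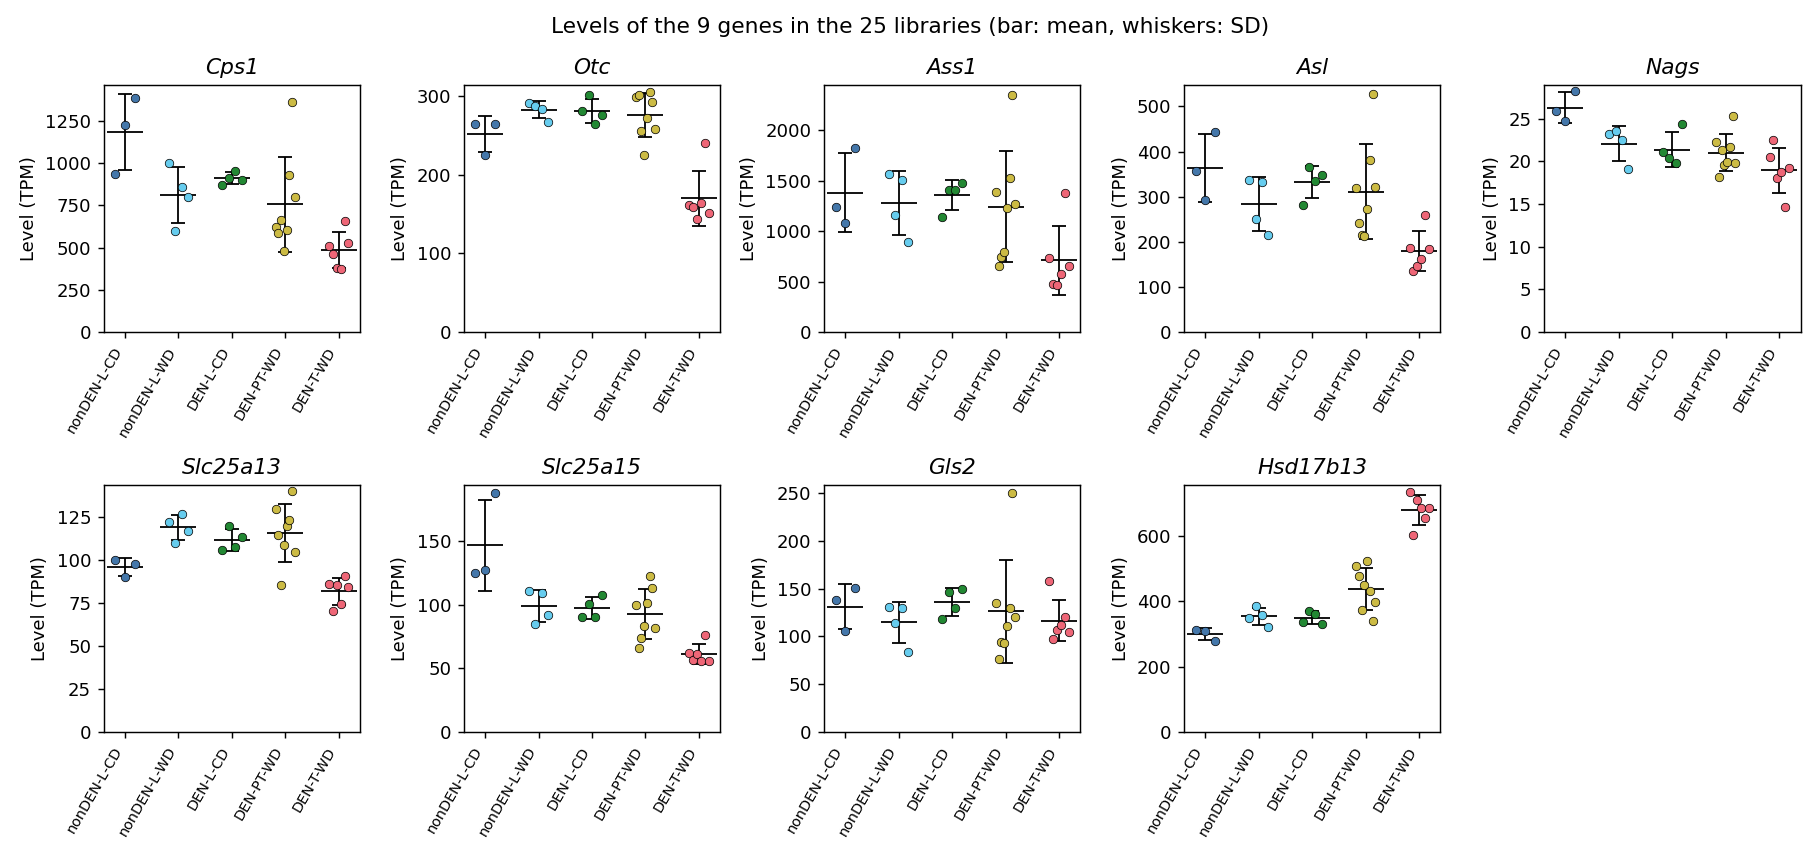
Level of each of the 9 genes in TPM (vertical axis, separate linear scale for each gene) in every library of the 5 groups, with each point 1 library and the bars the group mean and SD. Tumor means are the lowest for 7 genes, Gls2 groups overlap, and all 6 Hsd17b13 tumor points lie above the 19 other libraries.

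Cps1 had its highest mean in untreated control diet livers and its lowest in tumors. Cps1, which commits ammonia to the cycle, stood at 939, 1226 and 1388 TPM in the nonDEN-L-CD livers. In the nonDEN-L-WD livers it stood at 999, 597, 857 and 802 TPM, and in the DEN-L-CD livers at 870, 914, 957 and 902 TPM. Control diet without DEN was thus the highest group on average, but its lowest library lay inside the range of both others. Peritumoral Cps1 ran from 482 to 1362 TPM with a median of 644 TPM, and tumor Cps1 from 373 to 660 TPM with a median of 487 TPM. The 3 lowest tumors lay under every one of the other 19 libraries, and the remaining 3 overlapped the peritumoral range. In the order of means, only the step from peritumoral liver (756 ± 281 TPM, n = 8) to tumor (486 ± 107 TPM, n = 6) passed the test between neighbours.

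Otc, the next enzyme, had the narrowest spread within each non-tumor group among Cps1, Otc, Ass1 and Asl except in DEN-L-CD livers, where Cps1 was tighter. It stood at 264, 225 and 265 TPM in nonDEN-L-CD livers, at 291, 288, 284 and 267 TPM in nonDEN-L-WD livers, and at 281, 301, 265 and 276 TPM in DEN-L-CD livers. Peritumoral livers ran from 225 to 305 TPM with a median of 282 TPM. The tumors stood at 161, 158, 144, 164, 240 and 151 TPM, so that 5 of 6 were under all 19 non-tumor libraries and replicate 5 alone reached the liver range. By the count test, Otc neighbours in the order of means differed between DEN-L-CD and peritumoral livers and between nonDEN-L-CD livers and tumors. The former pair had close means in TPM, 281 in DEN-L-CD and 276 in peritumoral livers, and their TPM ranges overlapped. The call between DEN-L-CD and peritumoral livers was absent on the TPM scale. It was lost in 8 of 12 fits that left out a single library.

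Nags varied little within groups, with its highest mean in nonDEN-L-CD livers and its lowest in tumors. The nonDEN-L-CD livers stood at 25.9, 24.7 and 28.3 TPM, the nonDEN-L-WD livers at 23.2, 23.5, 22.5 and 19.2 TPM, and the DEN-L-CD livers at 21.0, 20.4, 19.8 and 24.4 TPM. Every library of the 2 other liver groups thus lay under the lowest nonDEN-L-CD library. Peritumoral livers ran from 18.2 to 25.3 TPM and tumors from 14.6 to 22.5 TPM, with 2 tumors under all other libraries. Of the 4 steps between neighbours in its order of means, 3 passed the test, more than for any other of the 9 genes.

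The cytosolic enzymes Ass1 and Asl spread widely between livers of the same group, as did Gls2 and, outside DEN-L-CD livers, Cps1. Ass1, the step at which aspartate brings in the cycle's other nitrogen, stood at 1242, 1082 and 1823 TPM in nonDEN-L-CD livers, at 1566, 1161, 1510 and 891 TPM in nonDEN-L-WD livers and at 1145, 1404, 1404 and 1476 TPM in DEN-L-CD livers. Its peritumoral range was 655 to 2350 TPM around a median of 1247 TPM, and its tumor range 464 to 1378 TPM around a median of 615 TPM. The groups overlapped throughout, and 3 of 6 tumors were under all other libraries. Asl, which releases arginine, stood at 356, 292 and 443 TPM in nonDEN-L-CD livers, at 337, 251, 332 and 215 TPM in nonDEN-L-WD livers and at 281, 366, 335 and 347 TPM in DEN-L-CD livers. Peritumoral Asl ran from 213 to 528 TPM and tumor Asl from 136 to 260 TPM, with 5 of 6 tumors under every non-tumor library.

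The carriers followed different orders. Slc25a15, the ornithine/citrulline exchanger, stood at 125, 127 and 188 TPM in nonDEN-L-CD livers, each above all 4 nonDEN-L-WD livers (110, 84.8, 109 and 91.7 TPM) and all 4 DEN-L-CD livers (90.4, 101, 90.0 and 108 TPM). Peritumoral livers ran from 65.9 to 122 TPM and tumors from 55.5 to 76.3 TPM, with 5 tumors under every non-tumor library. Slc25a13, the aspartate/glutamate carrier, had its highest mean not in the untreated group but in nonDEN-L-WD livers. It stood at 99.8, 90.0 and 97.7 TPM in nonDEN-L-CD livers, at 122, 110, 127 and 117 TPM in nonDEN-L-WD livers and at 106, 120, 108 and 113 TPM in DEN-L-CD livers. Peritumoral Slc25a13 ran from 85.8 to 140 TPM and tumor Slc25a13 from 70.2 to 90.5 TPM, so the tumors reached no further than the lower end of the peritumoral range.

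The TPM levels of Gls2 and Hsd17b13 did not share the tumor pattern, although Gls2 was lower in tumors than in both groups of control diet livers by the count test, as given below. Gls2, the liver glutaminase, stood at 138, 105 and 150 TPM in nonDEN-L-CD livers, at 130, 114, 130 and 84.0 TPM in nonDEN-L-WD livers and at 119, 146, 130 and 149 TPM in DEN-L-CD livers. Its peritumoral range, 76.0 to 250 TPM, enclosed the tumor range of 96.9 to 158 TPM, and none of the 4 steps in its order of means passed the test. Hsd17b13 stood at 312, 310 and 278 TPM in nonDEN-L-CD livers, at 348, 387, 358 and 322 TPM in nonDEN-L-WD livers and at 335, 371, 362 and 329 TPM in DEN-L-CD livers. Peritumoral livers ran from 339 to 524 TPM with a median of 441 TPM. The 6 tumors ran from 603 to 735 TPM, with no overlap with any of the other 19 libraries.

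**Figure D2:**
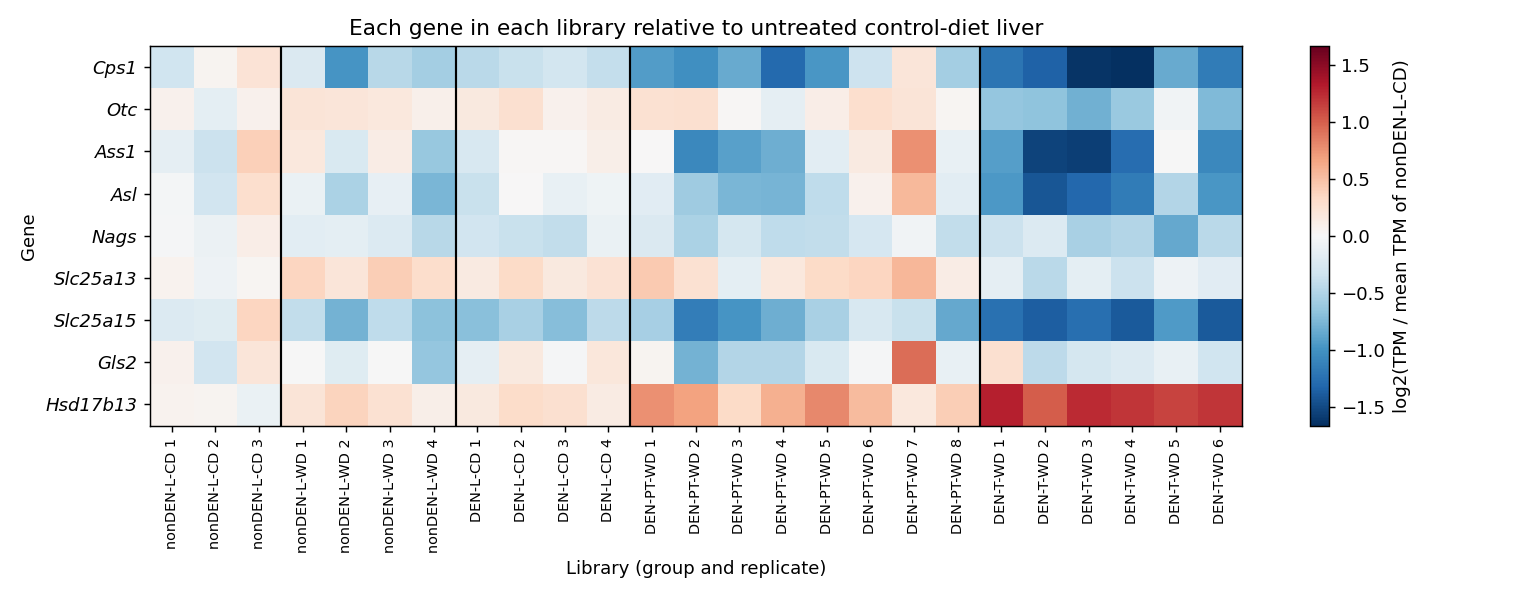
Level of each of the 9 genes (rows) in each of the 25 libraries (columns, by group), as log2 of TPM over the mean TPM of the nonDEN-L-CD livers, on the color scale. Tumor columns are below the reference for most genes and above it for Hsd17b13, and tumor replicate 5 and peritumoral replicate 7 are the least reduced of their groups for most genes.

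Western diet without DEN was set against control diet to ask what the diet alone did. Of the 9 genes, 2 changed, both lower, where 23.2% of all tested genes changed and 12.0% were lower. Slc25a15 was lower (log2 fold change -0.68 ± 0.18, edgeR adjusted p = 0.00802), and Nags was lower (-0.37 ± 0.12, edgeR adjusted p = 0.0289). They are the ornithine entry and the cofactor maker, while the mitochondrial enzymes Cps1 and Otc did not pass. Cps1 had a log2 fold change of -0.65 ± 0.26 that missed the threshold (edgeR adjusted p = 0.0771), as did Asl (-0.50, edgeR adjusted p = 0.161). Values for Otc (0.05), Hsd17b13 (0.11) and Slc25a13 (0.20) were on the other side of 0 and did not pass. The median over the 9 genes was -0.33, against 0.01 over all genes. The Slc25a15 call rested on nonDEN-L-CD replicate 3, without which it was -0.45 (edgeR adjusted p = 0.0954), and the Nags call was lost in 5 of 7 fits that left out 1 library. Cell type markers moved as well. Of 8 leukocyte markers 1 was higher and 1 lower, and 2 of 6 stellate markers were higher. Lower were 1 of 8 hepatocyte, 1 of 5 endothelial and 1 of 5 bile duct markers. The part of these cells was not tested.

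DEN on control diet was set against no DEN on the same diet, and again 2 of the 9 genes changed, both lower, where 21.3% of all genes changed and 12.2% were lower. They were Slc25a15 (-0.64 ± 0.18, edgeR adjusted p = 0.0128) and Nags (-0.35 ± 0.12, edgeR adjusted p = 0.0460). Cps1 stood at -0.42 ± 0.26 (edgeR adjusted p = 0.271), and the cytosolic enzymes Asl (-0.24) and Ass1 (-0.08) did not pass. The median over the 9 genes was -0.08, against 0.03 over all genes. This comparison shares its 3 control livers with the diet comparison, so the same 2 genes recurring is not separate evidence. Without nonDEN-L-CD replicate 3 the Slc25a15 value was -0.41 (edgeR adjusted p = 0.138), and Nags lost its call in 5 of 7 left-out fits. Among cell type markers, 1 of 8 leukocyte and 1 of 6 stellate markers were higher, Cd79a and Col3a1. Lower were 1 of 5 bile duct and 1 of 5 endothelial markers, Sox9 and Pecam1. The part of these cells was not tested. Set directly against each other, DEN-L-CD and nonDEN-L-WD livers differed in 0 of the 9 genes by edgeR, DESeq2 and limma, with 0 at an unadjusted p under 0.05 by edgeR, where 0.717% of all genes changed.

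Peritumoral livers, which had both DEN and Western diet, were lower than nonDEN-L-CD livers in 4 of the 9 genes and higher in none, where 45.3% of all genes changed and 21.9% were lower. Slc25a15 (-1.02 ± 0.15, edgeR adjusted p = 1.75e-05) and Cps1 (-0.99 ± 0.22, edgeR adjusted p = 0.00110) were lower to about the same extent. Nags (-0.67 ± 0.11, edgeR adjusted p = 2.95e-05) and Asl (-0.61 ± 0.22, edgeR adjusted p = 0.0287) were lower as well. The carbamoyl phosphate entry and the ornithine exchange therefore held the largest differences, and Otc between them in the pathway stood at -0.22 ± 0.11 (edgeR adjusted p = 0.121). Ass1 (-0.52, edgeR adjusted p = 0.169) and Gls2 (-0.44, edgeR adjusted p = 0.117) had wide errors. Asl lost its call without nonDEN-L-CD replicate 3 (-0.40, edgeR adjusted p = 0.223) and without replicate 1 (-0.65, edgeR adjusted p = 0.0508). Without replicate 3, Cps1 (-0.85) and Slc25a15 (-0.79) were still lower. Without peritumoral replicate 7, Ass1 (-0.71, edgeR adjusted p = 0.0388) and Gls2 (-0.65, edgeR adjusted p = 0.00241) were lower and Hsd17b13 was higher (0.24, edgeR adjusted p = 0.0293). The scale mattered here: TPM on the log2 scale moved the median of all genes up by 0.20 relative to the count scaling, and limma on those values called 3 lower and 2 higher, the latter Slc25a13 (0.26, limma adjusted p = 0.0449) and Hsd17b13 (0.53, limma adjusted p = 0.000314). The share of all genes that limma called was not counted. Over the 1836 genes above a mean of 50 TPM, the median was -0.11 with count scaling and 0.24 on the TPM scale. Markers of other cell types moved in the same comparison: 5 of 8 leukocyte markers were higher and 1 lower (sums of 244 to 510 TPM in peritumoral and 168 to 203 TPM in nonDEN-L-CD livers), 4 of 6 stellate markers were higher (230 to 440 and 149 to 163 TPM), 2 of 5 endothelial markers were higher (120 to 151 and 88.6 to 103 TPM) and 1 of 5 bile duct markers, Spp1, was higher (72.7 to 325 and 32.4 to 39.1 TPM). Of 8 hepatocyte markers 2 were lower, Apoh and Fgb (53578 to 89421 and 70442 to 75587 TPM). The part of these cells in the lower values was not tested.

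Against the livers that had only the diet or only DEN, fewer of the peritumoral differences passed the test. Nags alone was lower than in nonDEN-L-WD livers (-0.30 ± 0.10, edgeR adjusted p = 0.0454), 1 of 9 where 12.4% of all genes changed and 4.87% were lower. Against DEN-L-CD livers, Otc (-0.33 ± 0.10, edgeR adjusted p = 0.0401) and Nags (-0.33 ± 0.10, edgeR adjusted p = 0.0336) were lower, 2 of 9 where 10.6% of all genes changed and 3.76% were lower. In that comparison 8 of 9 values were negative, with a median of -0.37, and 6 had an unadjusted p under 0.05, among them Cps1 (-0.57, edgeR adjusted p = 0.0762). DESeq2 called 5 there, as did edgeR without peritumoral replicate 6 and without replicate 7. The share of all genes called under these settings was not counted. Leukocyte markers were higher in peritumoral livers in 3 of 8 against each of these groups and Spp1 of the bile duct markers in both. Against nonDEN-L-WD and DEN-L-CD livers, endothelial markers were higher in 2 and 3 of 5 and stellate markers in 3 and 2 of 6, and the hepatocyte marker Apoh was lower against the former. The part of these cells was not tested. The Nags calls were lost in 10 of 12 and in 6 of 12 left-out fits, and the Otc call in 8 of 12. On the TPM scale neither gene was called, and Hsd17b13 was instead higher in both comparisons by limma (0.30 and 0.31). Whether the effect of the diet differed with DEN was tested as an interaction, which passed for 0 of the 9 genes by edgeR, where 8.39% of all genes passed. Its DEN arm set peritumoral liver against whole liver that may hold small tumors, so diet and kind of tissue cannot be told apart there. At an unadjusted p under 0.05 there were 2, Otc and Slc25a13, and DESeq2 called 1, Slc25a13. The edgeR interaction values ran from -0.46 to 0.30, with a smallest adjusted p of 0.0703.

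**Figure D3:**
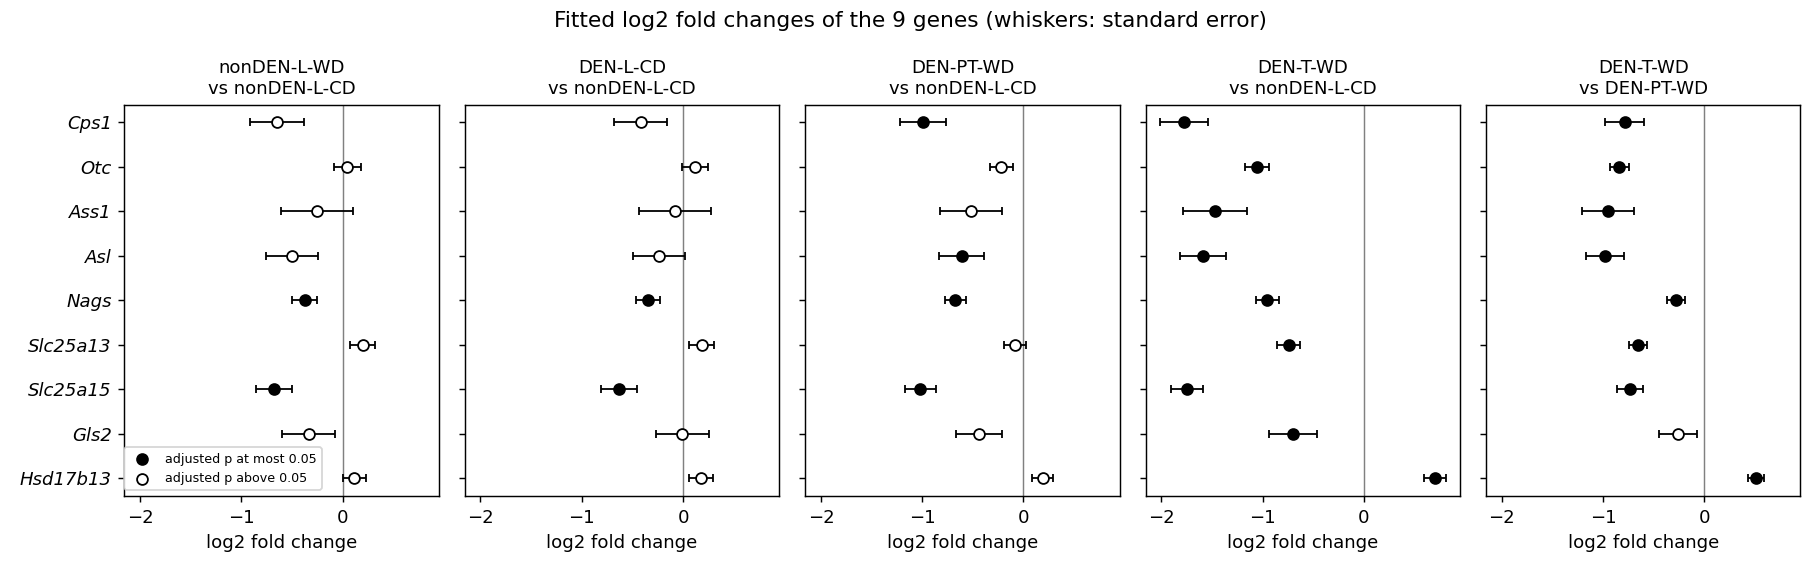
Log2 fold change of each of the 9 genes (horizontal axis, with whiskers of 1 SE) in 5 comparisons, 1 panel each, from the edgeR fit. Filled points have an adjusted p of at most 0.05: 2 genes in each of the diet and DEN panels (23.2% and 21.3% of all genes), 4 in peritumoral livers (45.3%), 9 in tumors against nonDEN-L-CD livers (54.0%) and 8 in tumors against peritumoral livers (37.7%).

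Tumors were set against the peritumoral liver of the same treatment and diet, the comparison in which neither carcinogen nor diet differs. Here 8 of the 9 genes changed, 7 lower and 1 higher, where 37.7% of all genes changed, 18.1% lower and 19.5% higher. The median over the 9 genes was -0.73, against 0.01 over all genes. None reached an absolute log2 fold change of 1, the study's other threshold, which 7.90% of all genes passed together with the adjusted p. The cytosolic pair that makes arginine stood at similar values, Asl at -0.98 ± 0.19 (edgeR adjusted p = 0.000281) and Ass1 at -0.95 ± 0.26 (edgeR adjusted p = 0.00528). Otc (-0.84 ± 0.09, edgeR adjusted p = 7.67e-07) had the lowest adjusted p, although its TPM ranges overlapped. Cps1 stood at -0.78 ± 0.19 (edgeR adjusted p = 0.00249). Both carriers were lower, Slc25a15 at -0.73 ± 0.13 (edgeR adjusted p = 0.000120) and Slc25a13 at -0.66 ± 0.09 (edgeR adjusted p = 7.27e-06). Thus each named step from carbamoyl phosphate to arginine, with the carriers of ornithine and aspartate, was lower.

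The cofactor maker and the genes beside the cycle differed by less in the same comparison. Nags was lower by a smaller amount (-0.28 ± 0.09, edgeR adjusted p = 0.0151). Gls2 stood at -0.26 ± 0.19 (edgeR adjusted p = 0.297), and without peritumoral replicate 7 at -0.05. Hsd17b13 was higher (0.51 ± 0.08, edgeR adjusted p = 3.58e-05). Nags lost its call on the TPM scale (-0.15, limma adjusted p = 0.165) and without the 7 libraries with over 1000 TPM of pancreas genes. Without tumor replicate 5, the tumor with fewer hepatocyte and more leukocyte transcripts, the same 8 genes were called, and Ass1 (-1.21), Asl (-1.09) and Otc (-0.93) lay further from 0. Without peritumoral replicate 7 the 8 genes were called as well, and Ass1 (-0.76), Asl (-0.83) and Cps1 (-0.62) lay nearer to 0, with Otc at -0.83.

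Tumors were also set against the 3 whole-liver groups. Against nonDEN-L-CD livers all 9 changed, 8 lower, where 54.0% of all genes changed, 26.2% lower and 27.8% higher. Cps1 (-1.78 ± 0.24, edgeR adjusted p = 1.90e-06), Slc25a15 (-1.75 ± 0.16, edgeR adjusted p = 1.16e-08), Asl (-1.59), Ass1 (-1.47) and Otc (-1.06) were lower by more than 1 on the log2 scale, as 5.82% of all genes were. Against DEN-L-CD livers all 9 changed as well, 8 lower, where 46.9% of all genes changed, 21.5% lower and 25.4% higher. The same 5 genes were lower by more than 1, as 4.58% of all genes were, from -1.39 for Ass1 to -1.11 for Slc25a15. Against nonDEN-L-WD livers 8 changed, 7 lower, where 49.0% of all genes changed, 23.1% lower and 25.9% higher. Again these 5 were lower by more than 1, as 5.24% of all genes were, from -1.22 for Ass1 to -1.07 for Slc25a15, and with Gls2 at -0.37 (edgeR adjusted p = 0.175). Hsd17b13 was higher in each, by 0.70, 0.52 and 0.59. On the TPM scale, where the median of all genes lay 0.24 to 0.31 higher than with count scaling, limma called 6, 6 and 6 lower against nonDEN-L-CD, DEN-L-CD and nonDEN-L-WD livers, with Hsd17b13 higher in each and Gls2 at 0.02 against nonDEN-L-WD livers. The share of all genes that limma called was not counted. Over the 1836 genes above a mean of 50 TPM, the edgeR medians were -0.19, -0.20 and -0.18 in the same order. On the TPM scale they were 0.28, 0.23 and 0.17. These comparisons share their 6 tumors. Leukocyte markers were higher in tumors in 5, 4 and 5 of 8 against nonDEN-L-CD, DEN-L-CD and nonDEN-L-WD livers, with sums of 328 to 954 TPM in tumors and 136 to 311 TPM over the 3 liver groups, and 3 of 6 stellate markers were higher in each, with 1, 2 and 1 lower. Endothelial markers were higher in 4, 2 and 2 of 5, with Clec4g lower each time, and bile duct markers were higher in 2 of 5 each time, with Krt19 lower against DEN-L-CD livers. The part of these cells in the results was not tested. The Gls2 difference from nonDEN-L-CD livers depended on nonDEN-L-CD replicate 3, without which it was -0.58 (edgeR adjusted p = 0.0871).

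Ratios between genes within a library, which no scaling of libraries alters, are given as a description. Ass1 per Asl stayed between 3.77 and 4.49 in all 5 group means. Slc25a13 per Slc25a12, its sister carrier, was 9.16 in peritumoral livers and 5.79 in tumors. Cps1 per Cad, which makes carbamoyl phosphate for pyrimidines in the cytosol, was 311 in peritumoral livers and 112 in tumors. These ratios were not tested.

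The other genes around the cycle are given from lists. In tumors against peritumoral livers 37.7% of all genes changed, 18.1% lower and 19.5% higher, and the counts per list stand beside these shares. Among 15 partners of urea formation, 7 were lower and 1 higher, with a list median of -0.47 against 0.01 over all genes. The lower ones included Glul (-1.34 ± 0.14, edgeR adjusted p = 4.10e-07), the glutamine synthetase, Car5a (-1.19 ± 0.13, edgeR adjusted p = 4.98e-07), which supplies bicarbonate to Cps1, Rhbg (-0.95), an ammonia transporter, and Aqp9 (-0.87), a channel that passes urea. The higher one was Glud1 (0.44), which releases ammonia from glutamate. Among 13 genes of arginine, ornithine and polyamine metabolism 4 were higher and 2 lower, with a median of 0.20. Oat, which degrades ornithine, stood at -1.82, Agmat at -0.82, Aldh18a1, which makes ornithine and proline precursors, at 1.23 and Nos2 at 1.15. Among 5 pyrimidine synthesis genes 3 were higher, Ctps2 (0.92), Cad (0.65) and Ctps (0.62), and Dhodh was lower (-0.26).

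Zonation genes were lower in tumors on both sides of the lobule. Of 11 other periportal genes 8 were lower and 0 higher, with a median of -0.87, among them Mfsd2a (-1.77), G6pc (-1.38), which releases glucose, Pigr (-1.10) and Sds (-0.95). Of 12 pericentral genes all 12 were lower, with a median of -1.25, among them Oat, Cyp2e1 (-1.67), Slc1a2 (-1.63) and Lgr5 (-1.39). Glul, Rhbg and Oat were also counted in the lists above, so the lists are not separate. The 7 lower genes thus sat beside a wider set of lower zonated genes, and not the periportal ones only. Of 11 regulators of hepatocyte and urea cycle genes 5 were lower (2 on the TPM scale), including Nr1h4 (-0.66), Cebpb (-0.63), Cebpa (-0.38) and Foxo1 (-0.34). Of 8 general hepatocyte markers 3 were higher and 0 lower, Apoa1 at 1.04, Trf at 0.90 and Alb at 0.89, while Fgb (0.43), Ambp (0.31), Apob (0.05), Apoh (-0.22) and Ttr (-0.43) did not pass. Against nonDEN-L-CD livers 2 of these markers were higher in tumors and 3 lower. Without tumor replicate 5 there were 5 higher, and without the 7 libraries rich in pancreas genes 0 were called, with 3 at an unadjusted p under 0.05. The hepatocyte markers summed to 43892 to 166189 TPM in tumors and 53578 to 89421 TPM in peritumoral livers. Leukocyte markers changed in 0 of 8 by edgeR, DESeq2 and limma, with 1 at an unadjusted p under 0.05 by edgeR and with sums of 328 to 954 TPM in tumors and 244 to 510 TPM in peritumoral livers. Bile duct markers were higher in 2 of 5, Spp1 (1.97) and Sox9 (1.38), with sums of 385 to 833 and 72.7 to 325 TPM, of which the defining Krt19 was 2.43 TPM in tumors and 3.73 TPM in peritumoral livers on average. Endothelial markers were higher in 1 and lower in 1 of 5 (sums 105 to 137 and 120 to 151 TPM), stellate markers higher in 3 and lower in 3 of 6 (192 to 280 and 230 to 440 TPM), and pancreas genes changed in 0 of 9 by each tool, with 0 at an unadjusted p under 0.05. The part of these cell types in the results was not tested.

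**Figure D4:**
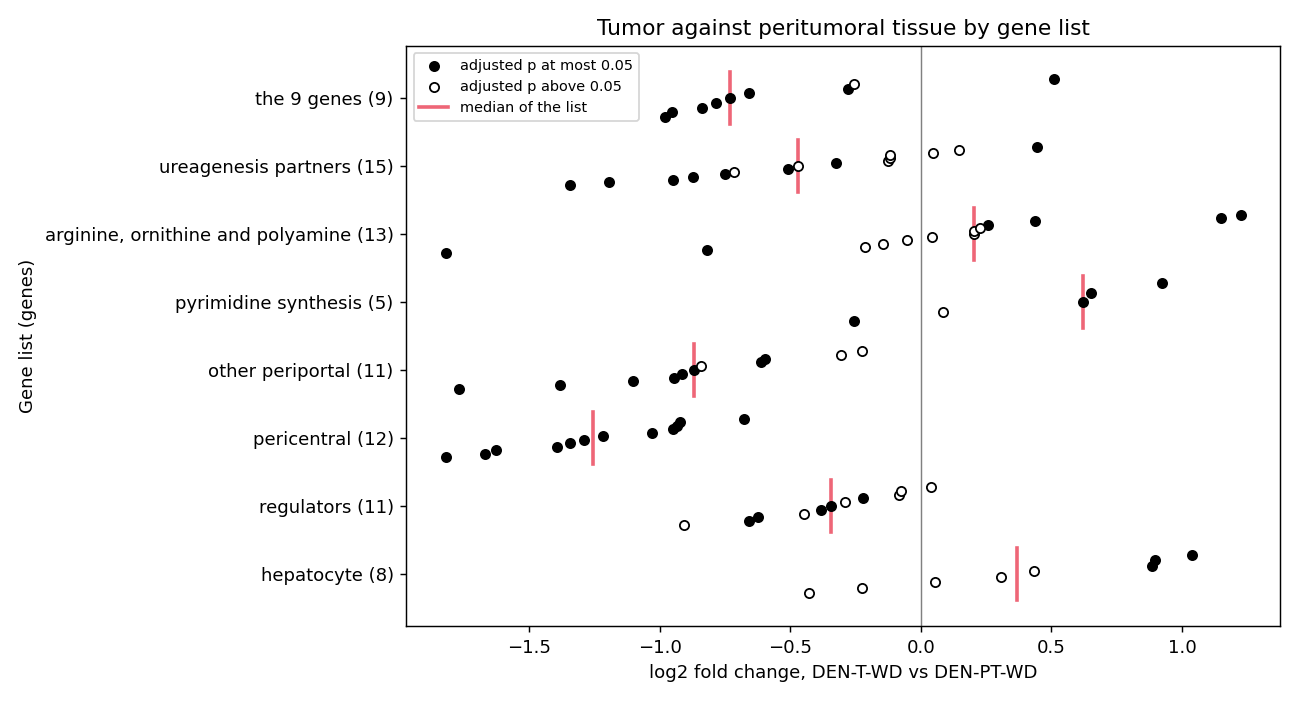
Log2 fold change of every gene of each list in tumors against peritumoral livers (edgeR), with 1 point per gene and a red line at the list's median. The medians lie at -1.25 for pericentral, -0.87 for other periportal and -0.47 for ureagenesis partner genes, and at 0.62 for pyrimidine synthesis.

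The lists were also counted in the livers without tumors. With Western diet alone, where 23.2% of all genes changed, 0 of 11 other periportal genes changed by edgeR, DESeq2 or limma, and 0 had an unadjusted p under 0.05 by edgeR, whereas 6 of 12 pericentral genes were higher and none lower, among them Lgr5 (1.28), Cyp2e1 (0.90) and Oat (0.82). Partners of urea formation were higher in 6 and lower in 1 of 15, with Car5a (0.81), Glul (0.81) and Sirt5 (0.64) higher and the glutamate carrier Slc25a22 lower (-0.93). Gatm (1.12), Oat and Gamt (0.78), of which Gatm and Gamt make creatine from arginine, were the 3 higher genes of the arginine list. Cad was lower (-0.95), and so were 2 of 11 regulators, Hnf4a (-0.57) and Cebpb (-0.49). Glul and Car5a were thus higher with the diet, where Slc25a15 and Nags were lower. In peritumoral livers against nonDEN-L-CD livers, where 45.3% of all genes changed, 1 of 11 other periportal genes was lower, Pck1, and 4 of 12 pericentral genes were higher, Axin2, Lgr5, Glul and Nkd1.

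Of the 9 genes, 8 varied together across libraries and Hsd17b13 did not, as a description over 25 libraries that share group, depth and dissection. Between the 8 genes other than Hsd17b13, Pearson r of log2 CPM ran from 0.552 to 0.965 over 28 pairs, with a median of 0.821. With the group means taken out it ran from -0.213 to 0.936, with a median of 0.522. Nags was the exception within groups, at -0.213 with Otc, -0.014 with Ass1 and at most 0.235 with the others except Gls2 (0.46). Ass1 and Asl were the closest pair (0.965, and 0.936 within groups). Hsd17b13 ran against the others, at -0.834 to -0.574 over its 8 pairs, but with the group means taken out its pairs ran from -0.619 to 0.222 with a median of -0.309, so much of that opposition lay between groups. Of 8069 well-expressed genes, those most like Cps1 were Ang, Ankrd33b and Nnmt, like Otc Slc27a5, Lamp2 and Acadsb, like Slc25a15 Lap3, Etnk2 and Aass, and like Slc25a13 Dmgdh, Sec14l4 and Slc10a1. Those most like Ass1 were Gnmt, Asl and Gm5424, the pseudogene that shares its sequence, and those most like Asl were Ass1, Ankrd33b and Gnmt. Nags was nearest to Zfp707, Slc25a45 and Oaf, and Gls2 to Got1 (0.863), Ass1 and Asl. For Hsd17b13 they were Ppfibp1 (0.896, and 0.511 within groups), Pvr and Slc35f5.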

How the data were processed

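RNA from 25 mouse liver and tumor samples was sequenced as single-end mRNA libraries. Per the labels, the authors used FastQC, STAR and RSEM with GRCm38, and the versions of STAR and RSEM are not given in the sources used here. For each sample the authors deposited RSEM expected counts, TPM and FPKM per Ensembl gene. TPM and FPKM are relative to the other transcripts of the same library. No comparison by the authors was among the files used. Symbols were matched to 48349 of 48795 identifiers with the reference table. The 9 genes and all lists were chosen with earlier results of these data known.

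Expected counts were rounded and filtered with filterByExpr (minimum count 10), leaving 15625 genes. They were scaled by TMM and tested in 1 fit over the 5 groups by edgeR 4.0.16 quasi-likelihood tests in R 4.3.3, with Benjamini-Hochberg adjusted p of at most 0.05. Totals of 21530083 to 38074411 expected counts per library set the precision. Alternatives were DESeq2 1.42.0, its size factors, no filter, only the groups compared, a block for the replicate number, limma 3.58.1 on log2(TPM + 1), single libraries left out, FPKM levels and, chosen after seeing the data, 7 libraries with over 1000 TPM of pancreas genes left out. Summaries and figures used Python 3.11.15, pandas 2.3.3 and Matplotlib 3.10.9. On simulated counts for 15625 genes, the tumor against peritumoral test recovered 53.7% of 1.5-fold, 74.6% of 2-fold and 89.4% of 4-fold changes, and the diet test without DEN 20.9%, 65.7% and 87.9%. Each simulation changed 67, 67 and 66 genes by these folds, drawn at any level and far fewer than changed in the data. The rates are thus not those of the 9 genes. The text names all 9 genes, up to 4 of the largest changes per list and comparison (others, such as Glud1, were named after their values were seen), and the 3 genes most like each of the 9 by Pearson r. Some genes of the original lists are not reported here. In 58 pairs of libraries of the same group, none agreed within sampling noise.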

Additional observations from a re-analysis of the deposited data

Results flagged for a closer look

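Of 36 sets of 4 to 8 libraries, each 1 gene in 1 group, 4 held a library far from the rest of its group by Dixon's criterion, where chance gives about 1 in 20 sets. Of these, 3 were tumor replicate 5, the tumor with the lowest hepatocyte marker sum. The sets share libraries and most of the genes vary together, so they are not separate draws. Its Otc level was 240.23 TPM against 163.94 TPM in the next tumor, its Ass1 level 1377.65 TPM against 731.48 TPM, and its Slc25a15 level 76.27 TPM against 62.04 TPM. Peritumoral replicate 7 held Gls2 at 249.96 TPM against 135.38 TPM in the next library. No interaction of DEN with diet passed the test for these genes by edgeR, with peritumoral liver as the DEN tissue on Western diet. Every kind of deposited value was used.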

How the results depend on the processing

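Of 567 fold changes recomputed under alternatives other than leaving out 1 library, 506 kept their direction and their side of the threshold, 27 lost and 20 gained a call, and 14 changed sign. With 1 library left out, 764 of 828 kept both, 39 lost and 13 gained a call, and 12 changed sign. None of the sign changes was in tumors against peritumoral livers. The count of genes with their lowest mean in tumors was 7, and 8 with FPKM or medians. The cause of the differences was not tested, other than that TPM scaling moved the median of all genes.

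The number of the 9 genes called moved as follows. The shares of all genes given above are those of the main edgeR fit. Apart from the replicate block, they were not counted for these alternatives, so a moved count has no share beside it. At an absolute log2 fold change of 1 it was 0 for the diet and DEN effects without the other, for peritumoral livers against nonDEN-L-WD and DEN-L-CD livers and for tumors against peritumoral livers, 1 for peritumoral against nonDEN-L-CD livers, and 5 for tumors against each whole-liver group. In both comparisons of control diet livers (2 called: nonDEN-L-WD and DEN-L-CD against nonDEN-L-CD) it was 1 with no filter, with limma and without the libraries rich in pancreas genes. For peritumoral against nonDEN-L-WD livers (1 called) it was 2 with DESeq2 and 0 with no filter or without those libraries, and against DEN-L-CD livers (2 called) it was 5 with DESeq2 and 1 with no filter, with limma or without those libraries. DESeq2 called 1 interaction. Leaving out single libraries gave 0 to 2 for the diet and for DEN, 3 to 7 for peritumoral against nonDEN-L-CD livers, 0 to 3 and 0 to 5 against nonDEN-L-WD and DEN-L-CD livers, 8 to 9, 8 to 8 and 9 to 9 for tumors against nonDEN-L-CD, nonDEN-L-WD and DEN-L-CD livers, 8 to 8 for tumors against peritumoral livers, 0 to 0 between the livers with only DEN and those with only Western diet and 0 to 1 for the interaction.

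These values changed sign with limma on TPM. For DEN-L-CD against nonDEN-L-CD livers they were Ass1 0.0031 and Gls2 0.0618, and for peritumoral against nonDEN-L-CD livers Otc 0.1321 and Slc25a13 0.2589. For peritumoral against nonDEN-L-WD livers they were Asl 0.0942 and Gls2 0.0686, for tumors against nonDEN-L-WD livers Gls2 0.0226, and for peritumoral against DEN-L-CD livers Slc25a13 0.0401. Gls2 for DEN-L-CD against nonDEN-L-CD livers was 0.0042 with no filter, 0.0503 with the replicate block and 0.0971 without the libraries rich in pancreas genes. Hsd17b13 for peritumoral against DEN-L-CD livers was -0.0036 with DESeq2, -0.0035 with its size factors and -0.0580 without those libraries. With 1 library left out, the ranges that crossed 0 were Otc -0.0581 to 0.0922 and Ass1 -0.4311 to 0.0061 for the diet, Ass1 -0.2576 to 0.1794 and Gls2 -0.1802 to 0.1141 for DEN, and Hsd17b13 -0.0218 to 0.062 for peritumoral against DEN-L-CD livers.

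Groups share replicate numbers in the labels, which do not say that these mark pairs, and the numbers were not taken as pairs. Correlations of the deviations of same-numbered samples ran from -0.239 to 0.388, with no comparison in which every pair passed 0.1. Differently numbered samples were not set beside them, so these values cannot show whether samples were paired. With the replicate block, the number of these genes called was 2 for peritumoral against nonDEN-L-WD livers and 5 against DEN-L-CD livers, while over all genes the block called 1119 and 1146, against 1933 and 1650 without it. It called 6 for peritumoral against nonDEN-L-CD livers (4 without it), 3 for the diet (2) and 9 for tumors against nonDEN-L-WD livers (8), and left the other counts as they were.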
